A study of Homo sapiens with 2 samples.

Results

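The 10 genes described here are common markers of stromal and mesenchymal cells, VIM, ACTA2, TAGLN, THY1, PDGFRA, PDGFRB, DCN, LUM, POSTN and FN1. They were taken by their symbols from the 55797 genes of the expression tables, where each symbol named 1 gene. H1 is an established human embryonic stem cell line, and its cells were differentiated towards pancreatic endocrine cells until Stage 6, the stage at which insulin-expressing cells are present. Stage 6 cells were divided into 2 samples, which the submitters regard as biologically the same. Live cells were lysed unfixed and unsorted, and RNA was taken with the RNeasy kit. Processed cells went through MARIS, in which cells are fixed with 4% paraformaldehyde, permeabilized, stained with antibody and passed through a cell sorter with every cell collected, after which RNA was taken with a modified RecoverAll kit. Both libraries therefore came from mixed, unselected cultures of 1 line, and each condition had 1 library (no replicates). The question was whether the MARIS procedure changes how much of each transcript is recovered.

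Mesenchymal cells lie between and beneath epithelia, lay down extracellular matrix and, where they become smooth muscle or myofibroblasts, contract. In the pancreas they include fibroblasts, stellate cells and the pericytes of blood vessels, and in the embryo mesenchyme supplies growth signals to the pancreatic epithelium. The 10 genes cover several parts of this programme. VIM encodes vimentin, the intermediate filament protein of mesenchymal cells, which neural and many cultured cells also make. ACTA2 (smooth muscle α-actin) and TAGLN (transgelin, or SM22α) belong to the contractile apparatus, THY1 is a glycoprotein of the fibroblast surface, and PDGFRA and PDGFRB are the receptors for platelet-derived growth factors. DCN (decorin) and LUM (lumican) are small leucine-rich proteoglycans that bind collagen fibrils, and POSTN (periostin) and FN1 (fibronectin) are matrix glycoproteins. None of these genes marks a single cell type.

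Levels are given as FPKM, the fragments of a gene scaled to its exon length and to the size of the library, so that they can be compared between genes. Each value of the 10 genes stands with the lower and upper bound that the authors' software gave for that library. Where 2 values of a gene stand side by side, live cells come first and processed cells second. The bounds, whose level is not stated, cover uncertainty within a library only. Ratios between conditions are taken on the log2 scale after adding 1 to each FPKM, as log2 of processed over live, which shrinks the ratios of low genes, whereas plain folds are of FPKM itself. Past 2-fold means past 2-fold after this addition, and a gene past 2-fold by plain FPKM alone is named as such. FPKM summed to 510713 in live and 499398 in processed cells, and 17326 genes reached 1 FPKM in either library and were counted. All 10 marker genes were among these, POSTN through the processed library alone. In bulk RNA, fewer cells of a type cannot be told apart from less RNA per cell.

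The 10 genes ranged from 0.964 to 514 FPKM in live cells and from 1.17 to 485 FPKM in processed cells, and 4 of them differed more than 2-fold between live and processed cells, in opposite directions. DCN and POSTN were higher in processed cells, and ACTA2 and PDGFRB were lower. The 3 genes that carried most of the RNA, VIM, FN1 and TAGLN, stayed within 2-fold. Of all 17326 genes, 12.8% were past 2-fold, 6.57% higher and 6.19% lower in processed cells. This share depended on level, at 24.6% of genes with a mean FPKM from 1 to 3 and 11.5% of those from 3 to 10, the ranges in which the 4 genes lay. POSTN was counted through the processed library alone. Of the 9 marker genes that reached 1 FPKM in both libraries, 1 was past 2-fold higher and 2 lower. Over all 14635 genes that did so, 426 were higher and 336 lower. For 8 of the 10 genes the bounds of live and processed cells were separate, 2 higher and 6 lower in processed cells, against 71.8% of all genes, 28.1% higher and 43.7% lower. The median log2 ratio was -0.12 over the 10 genes and -0.092 over all genes. With 1 library per condition, no difference here could be tested against replicate error.

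**Figure D1:**
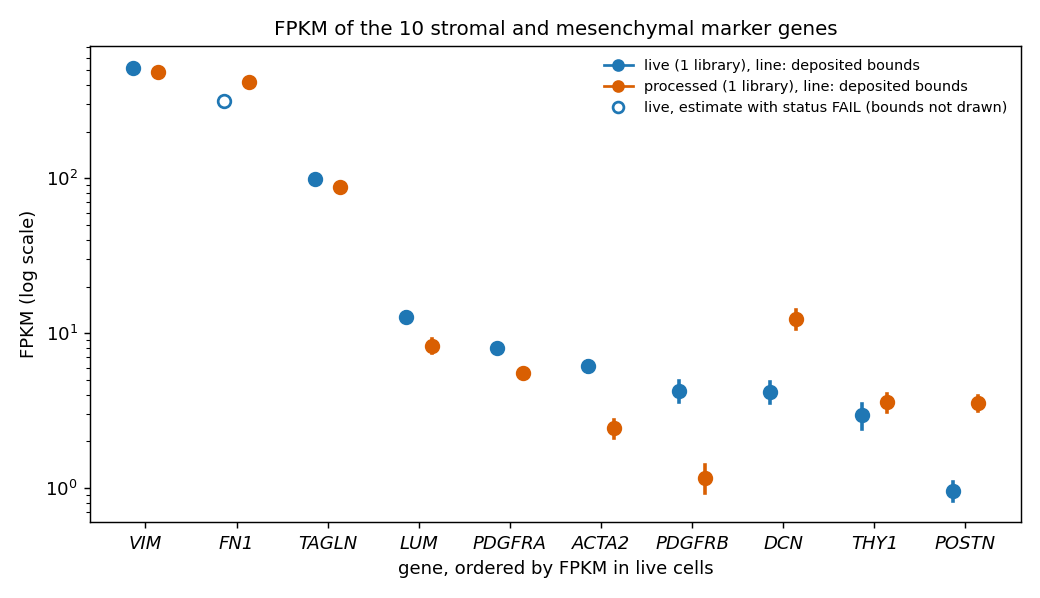
FPKM (log axis) of each of the 10 genes in the live library (blue) and the processed library (orange), with lines for the deposited lower and upper bounds; the open circle is FN1 in live cells, whose estimate had the status FAIL. VIM, FN1 and TAGLN lie at 88.4 FPKM or above in both libraries, the other 7 genes lie at 12.7 FPKM or below, and DCN and POSTN are the genes that move up the most.

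In live cells the order of levels was VIM, FN1, TAGLN, LUM, PDGFRA, ACTA2, PDGFRB, DCN, THY1 and POSTN. Neighbours in this order had separate bounds except PDGFRB and DCN, which lay within 1.02-fold of each other, and the pairs that include FN1. In processed cells the order was VIM, FN1, TAGLN, DCN, LUM, PDGFRA, THY1, POSTN, ACTA2 and PDGFRB, and THY1 and POSTN alone had overlapping bounds. DCN thus moved from place 8 to place 4, while PDGFRB moved from place 7 to place 10. The 10 genes summed to 965.5 FPKM in live against 1026 FPKM in processed cells, which was 0.189% and 0.206% of all FPKM. VIM and FN1 made up 85.8% and 87.8% of these sums, and the other 8 genes summed to 137.5 and 125.4 FPKM.

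VIM (ENSG00000026025.9, chromosome 10, 17270258 to 17279592 on GRCh37/hg19, as for all gene positions here) had 514 FPKM in live cells (bounds 511 to 518) and 485 FPKM in processed cells (481 to 488). The log2 ratio was -0.085, close to the median of all genes, and it became 0.016 when the processed values were divided by 0.932, the median processed/live ratio over genes. VIM ranked 149 of all genes in live and 146 in processed cells. VIM therefore differed little between the libraries, and the side on which it fell depended on the scaling. A non-coding gene on the opposite strand, RP11-124N14.3, lies within the VIM interval and had an FPKM below 0.1 in both libraries.

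The contractile genes differed in level and in ratio. TAGLN (ENSG00000149591.12, chromosome 11, 117070037 to 117075498) had 98.3 FPKM in live cells (95.8 to 101) and 88.4 FPKM in processed cells (85.7 to 91.1), a log2 ratio of -0.15. ACTA2 (ENSG00000107796.8, chromosome 10, 90694831 to 90751147) had 6.10 FPKM in live cells (5.63 to 6.58) and 2.43 FPKM in processed cells (2.11 to 2.75). ACTA2 was thus 2.51-fold lower in processed cells, with separate bounds, and 5.38% of all genes had a lower log2 ratio than its -1.05. After division by the median ratio its log2 ratio was -0.98, just short of 2-fold. TAGLN exceeded ACTA2 by 16.1-fold in live and 36.4-fold in processed cells, and the bounds of this ratio did not overlap between the libraries.

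FAS, which encodes a death receptor and lies head to head with ACTA2 on the opposite strand, overlaps 734 bases of its interval. FAS had 1.37 FPKM in live cells (1.14 to 1.60) and 0.412 FPKM in processed cells (0.302 to 0.521), so that it was also lower in processed cells. STAMBPL1, on the opposite strand as well, shares 40080 bases with the ACTA2 interval and had 0.758 and 0.515 FPKM. Whether the libraries kept the strand is not stated, so fragments from the shared stretches cannot be told apart. TAGLN shares 446 bases with PCSK7 on the opposite strand, which had 13.5 FPKM in live against 16.7 FPKM in processed cells.

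Promoter sequences are shown for 3 of the 4 genes past 2-fold, the genes on which the results turn, so that their start sites can be set beside overlapping genes and known motifs. RefSeq promoter windows held 6 of the 10 genes, FN1, PDGFRA, PDGFRB, VIM, ACTA2 and POSTN, and not TAGLN, THY1, DCN and LUM. Each sequence below is the 250 bases before a RefSeq start site (annotation on GRCh38.p14), 5′ to 3′ on the strand of the gene, and each matched GRCh37 exactly at 1 place, which is given. Capitals mark matches to the motifs searched on both strands. These were the CArG box, bound by serum response factor (SRF), the CArG box with 1 C or G in its A/T-rich core, the TATA motif TATAAA and the CCAAT motif CCAAT.
ACTA2, upstream start, chr10:90751095-90751344, minus strand: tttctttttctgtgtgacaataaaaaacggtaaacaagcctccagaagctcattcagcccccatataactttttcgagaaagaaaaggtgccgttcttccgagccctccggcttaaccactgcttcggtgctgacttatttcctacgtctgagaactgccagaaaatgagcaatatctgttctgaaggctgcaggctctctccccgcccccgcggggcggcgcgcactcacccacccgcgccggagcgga
ACTA2, downstream start, chr10:90712531-90712780, minus strand: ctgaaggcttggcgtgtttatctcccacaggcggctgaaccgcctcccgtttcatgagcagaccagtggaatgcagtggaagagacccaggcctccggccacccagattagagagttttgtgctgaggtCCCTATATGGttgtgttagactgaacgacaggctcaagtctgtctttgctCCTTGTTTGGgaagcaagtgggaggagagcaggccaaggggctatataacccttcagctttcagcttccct
PDGFRB, chr5:149535409-149535658, minus strand: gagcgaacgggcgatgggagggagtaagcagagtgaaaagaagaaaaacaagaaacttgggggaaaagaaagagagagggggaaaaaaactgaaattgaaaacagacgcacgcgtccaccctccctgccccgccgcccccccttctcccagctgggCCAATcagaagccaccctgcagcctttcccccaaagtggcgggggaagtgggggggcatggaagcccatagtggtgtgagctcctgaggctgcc
POSTN, chr13:38172906-38173155, minus strand: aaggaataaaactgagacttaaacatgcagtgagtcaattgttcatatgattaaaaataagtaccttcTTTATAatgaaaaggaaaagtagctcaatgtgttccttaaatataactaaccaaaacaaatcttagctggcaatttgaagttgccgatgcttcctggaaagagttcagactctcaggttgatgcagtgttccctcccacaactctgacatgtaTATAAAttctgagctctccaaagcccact

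The downstream ACTA2 start, which lies within the ACTA2 interval, held 2 matches to the CArG box with 1 C or G in its core, and the upstream start, which lies inside the FAS interval, held no match to any motif. Smooth muscle α-actin is known for CArG boxes that carry such a substitution. A match of this kind was found in 5.96% of 35116 windows of the same length and the strict CArG box in 1.16%. The PDGFRB window held 1 CCAAT match, as did 32.0% of all windows. The POSTN window held 2 TATAAA matches, 1 on each strand, a motif found in 10.7% of windows. No matches overlapped in these 4 windows. A match is a stretch of letters and was not tested as a binding site.

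The rest of the contractile programme was read from a list of 15 genes, of which 11 reached an FPKM of 1. Of these, 8 were within 2-fold, 2 were past it on the higher side and 1 on the lower side, with a median log2 ratio of -0.13. Over all genes, 12.8% were past 2-fold. TPM1, a tropomyosin, was the most abundant in live cells, at 264 FPKM and 242 FPKM in processed cells. CALD1, which encodes the actin-binding protein caldesmon, had 119.5 FPKM in live cells against 47.6 FPKM in processed cells, a log2 ratio of -1.31. SMTN (smoothelin) had 9.98 FPKM in live against 23.1 FPKM in processed cells, a log2 ratio of 1.13. The other gene on the higher side was DES (desmin, named after its values were seen), at 0.0528 and 1.58 FPKM, which was counted through the processed library alone. SRF itself had 22.1 and 13.9 FPKM, and its coactivator gene MKL1 had 16.4 and 11.3 FPKM, both lower in processed cells with separate bounds. CNN1 had 9.63 and 13.1 FPKM, higher with separate bounds, and MYL9 had 41.7 and 40.3 FPKM with overlapping bounds. Of the 11 genes, 4 had separate bounds on the higher side and 6 on the lower side, where the shares of all genes were 28.1% and 43.7%. A link between SRF and ACTA2 was not tested. MYOCD, the coactivator of smooth muscle, stayed below an FPKM of 1 in both libraries, as did LMOD1, ACTG2 and MYH11.

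**Figure D2:**
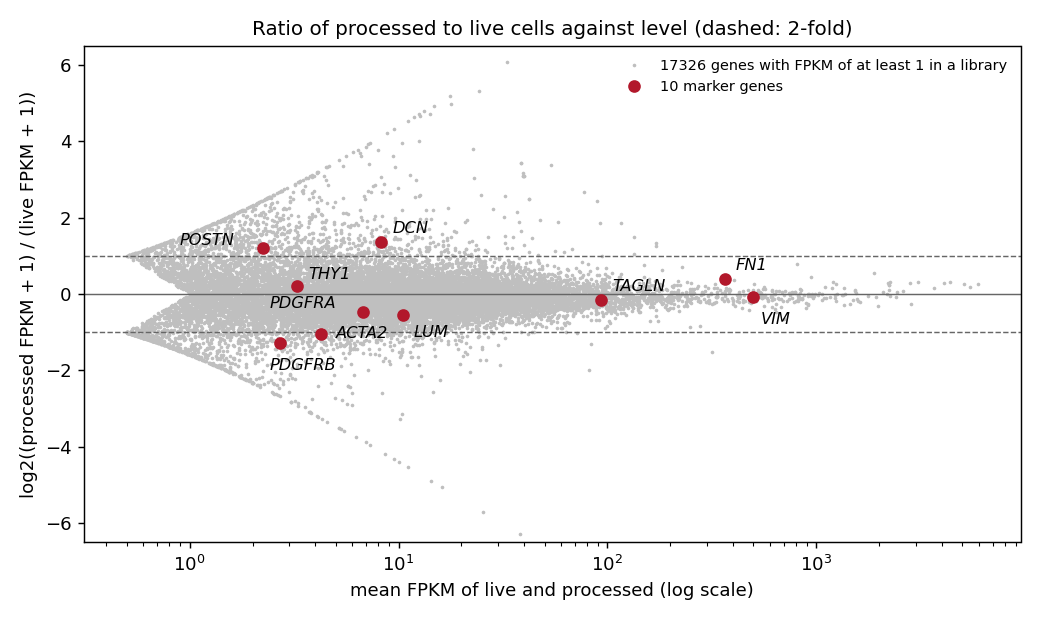
Log2 ratio of processed to live cells (pseudocount of 1) against the mean FPKM (log axis) for 17326 genes (grey) and the 10 marker genes (red); dashed lines mark 2-fold, and 7 grey genes lie outside the drawn range. DCN and POSTN lie above the upper line and ACTA2 and PDGFRB below the lower one, all 4 at a mean below 10 FPKM, where the grey points also spread widely.

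PDGFRA and PDGFRB, receptor tyrosine kinases on mesenchymal progenitors, fibroblasts and pericytes, were both lower in processed cells. PDGFRA (ENSG00000134853.7, chromosome 4, 55095264 to 55164414) had 8.03 FPKM in live cells (7.66 to 8.41) and 5.56 FPKM in processed cells (5.36 to 5.77), 1.44-fold lower. PDGFRB (ENSG00000113721.8, chromosome 5, 149493400 to 149535423) had 4.26 FPKM in live cells (3.60 to 4.93) and 1.17 FPKM in processed cells (0.928 to 1.41), 3.65-fold lower. The bounds of both genes were separate between the libraries. The log2 ratio of PDGFRB, -1.28, was lower than that of all but 3.16% of genes, and that of PDGFRA was -0.46. PDGFRA exceeded PDGFRB by 1.88-fold in live and 4.76-fold in processed cells, a change in their ratio of 2.53-fold that does not depend on the scaling of the libraries. The PDGFRA interval shares 66176 bases with that of FIP1L1 on the same strand, which had 30.3 FPKM in live against 40.2 FPKM in processed cells and so lay on the other side.

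The ligands of these receptors were all expressed and none of the 4 was past 2-fold, where 12.8% of all genes were. PDGFA had 32.9 FPKM in live against 33.6 FPKM in processed cells, and PDGFD had 7.06 and 6.78 FPKM, with overlapping bounds. PDGFC had 26.3 and 20.2 FPKM, lower in processed cells with separate bounds. PDGFB, whose product is a ligand of both receptors, had 4.68 and 6.60 FPKM, higher with separate bounds. The ligands together summed to 70.9 FPKM in live against 67.2 FPKM in processed cells, more than the receptors in each library.

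DCN and LUM, neighbours on chromosome 12, changed places. LUM (ENSG00000139329.4, 91496406 to 91505608) had 12.7 FPKM in live cells (11.7 to 13.6) and 8.33 FPKM in processed cells (7.45 to 9.20), 1.52-fold lower. DCN (ENSG00000011465.12, 91539025 to 91576900) had 4.18 FPKM in live cells (3.53 to 4.83) and 12.4 FPKM in processed cells (10.7 to 14.1), 2.97-fold higher. Bounds were separate for each gene, and 96.4% of all genes had a lower log2 ratio than the 1.37 of DCN. LUM exceeded DCN by 3.04-fold in live cells, whereas DCN exceeded LUM by 1.49-fold in processed cells. The DCN/LUM ratio thus differed by 4.52-fold between the libraries whatever their scaling, and its bounds did not overlap.

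The bounds of DCN were wider than the median of genes at its level. In processed cells they spanned ±14% of its FPKM, compared with a median of ±5.32% and a 95th percentile of ±11.9% over the 4723 genes from 10 to 30 FPKM. In live cells they spanned ±15.6%, compared with a median of ±7.68% and a 95th percentile of ±18.0% from 3 to 10 FPKM. Those of LUM in processed cells spanned ±10.5%, compared with a median of ±8.06% and a 95th percentile of ±22.2% from 3 to 10 FPKM. GENCODE release 44 lists 18 coding transcripts for DCN, from 228 to 6850 nt, and 1 for LUM, of 2671 nt. FPKM divides fragments by transcript length, so the FPKM of any gene also depends on which of its transcripts the fragments were assigned to. Such a range was not particular to DCN. In release 44 it was 375 to 3786 nt for TAGLN, 573 to 6378 nt for PDGFRA and 568 to 5700 nt for PDGFRB. The FPKM values rest on GENCODE version 14, whose transcripts were not examined. The part of transcript length in the DCN ratio was not tested. Levels of single transcripts were not analysed here.

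**Figure D3:**
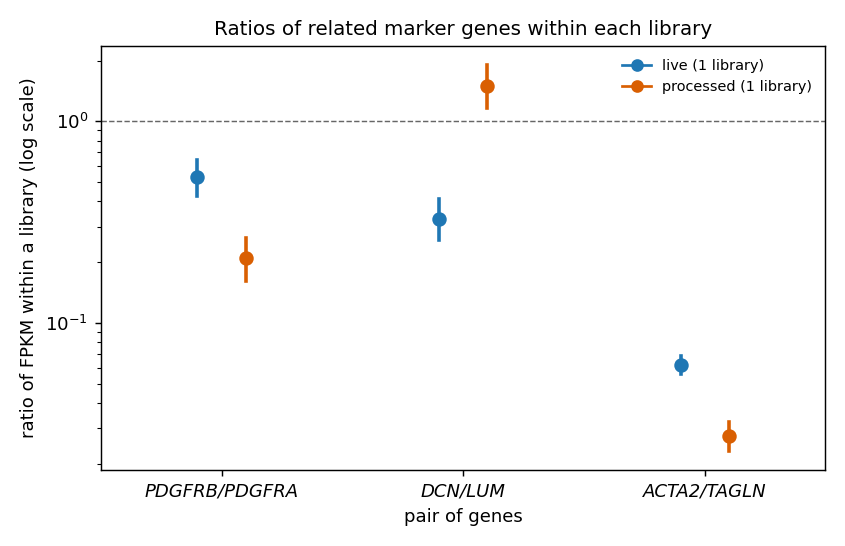
Ratio of FPKM (log axis) of PDGFRB to PDGFRA, DCN to LUM and ACTA2 to TAGLN within the live library (blue) and the processed library (orange); lines run from the lowest to the highest ratio that the deposited bounds allow, and the dashed line marks equal levels. DCN/LUM crosses from 0.329 to 1.49, and the other pairs drop from 0.531 to 0.210 and from 0.0621 to 0.0275.

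Other small leucine-rich proteoglycans were scarce in these cultures. Of 10 listed, 3 reached an FPKM of 1, and none of these was past 2-fold, where 12.8% of all genes were. FMOD (fibromodulin) had 2.22 FPKM in live against 1.56 FPKM in processed cells, and BGN (biglycan), a close relative of decorin, had 1.80 and 2.04 FPKM with overlapping bounds. The third, CHAD (chondroadherin), had 0.220 and 1.25 FPKM, 5.66-fold higher by plain FPKM with separate bounds, and a log2 ratio of 0.88. KERA and EPYC, which lie in the same chromosome 12 cluster as LUM and DCN, were at or near 0, with KERA at 0.0200 FPKM in live cells and listed at 0 in processed cells, and EPYC listed at 0 in both. Of the 4 genes of the cluster examined, LUM and DCN alone reached an FPKM of 1.

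Of the matrix glycoproteins, POSTN had the lowest level of the 10 genes in live cells and FN1 was next to VIM in both libraries. POSTN (ENSG00000133110.10, chromosome 13, 38136720 to 38172981) had 0.964 FPKM in live cells (0.831 to 1.10) and 3.52 FPKM in processed cells (3.12 to 3.91). POSTN was thus 3.65-fold higher in processed cells, with separate bounds and a log2 ratio of 1.20, and 95.3% of all genes had a lower ratio. It was counted through the processed library alone. Of its 10 transcripts in release 44, 6 are coding, from 3071 to 3301 nt, and no other of the 55797 genes overlaps it. The bearing of either on its ratio was not tested. Its bounds spanned ±13.8% of its FPKM in live cells and ±11.2% in processed cells, where the median of the 4939 genes from 3 to 10 FPKM was ±8.06%.

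FN1 (ENSG00000115414.14, chromosome 2, 216225163 to 216300895) had 314 FPKM in live cells against 416 FPKM in processed cells (410.5 to 422). The live estimate carried the status FAIL, with bounds from 0 to 3000 FPKM, so that its precision is not known and the log2 ratio of 0.41 rests on a failed estimate. Of 60 counted genes that failed in live cells and not in processed cells, 52 were within 2-fold, 4 were higher and 4 were lower. The shares of all genes were 6.57% higher and 6.19% lower. The precision of the FN1 estimate cannot be read from these counts. FN1 exceeded POSTN by 118-fold in processed cells, with bounds from 104.9 to 135.1, and by 325-fold in live cells, with bounds from 0 to 3610.

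Of 19 other matrix genes listed, 17 reached an FPKM of 1, and none of these 17 was past 2-fold, while ELN and MGP stayed below 1 FPKM and were not counted. Their median log2 ratio was -0.11. Bounds were separate and higher in processed cells for 5, separate and lower for 7, and overlapping for 5. Of all genes, 12.8% were past 2-fold, and bounds were separate and higher for 28.1% and separate and lower for 43.7%. SPARC, a collagen-binding glycoprotein, had 209 FPKM in live against 187 FPKM in processed cells, and FBLN1 (fibulin-1) had 176 and 161 FPKM. FBN1, which encodes the microfibril protein fibrillin-1 and was chosen after its values were seen, came nearest to 2-fold, with 5.06 FPKM in live against 11.04 FPKM in processed cells and a log2 ratio of 0.99, and was 2.18-fold higher by plain FPKM. The fibrillar collagen genes lay on both sides, COL1A1 at 31.9 and 22.7 FPKM and COL1A2 at 21.5 and 26.6 FPKM, both named after their values were seen.

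THY1 (ENSG00000154096.9, chromosome 11, 119288090 to 119295695) was the only one of the 10 genes with the status OK in both libraries whose bounds overlapped. It had 2.96 FPKM in live cells (2.42 to 3.49) and 3.59 FPKM in processed cells (3.12 to 4.07), a log2 ratio of 0.22. A non-coding gene on the opposite strand within the THY1 interval (119288661 to 119289824) had 1.71 FPKM in live cells against 0.390 FPKM in processed cells. Fragments of the 2 genes cannot be told apart without strand. RP11-399O19.5 beside ACTA2, RP11-305N23.1 across THY1 and AC005895.3 at PDGFRB also overlap these genes and stayed below an FPKM of 1 in both libraries.

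Of 13 other surface markers of fibroblasts, pericytes and mesenchymal stem cells, 8 reached an FPKM of 1, and 1 was more than 2-fold lower and 0 more than 2-fold higher. The shares of all genes were 6.19% lower and 6.57% higher. The median log2 ratio of the 8 markers was -0.27. CDH2 (N-cadherin), which neural and endocrine cells also make, was the most abundant, at 130 and 111 FPKM, followed by ALCAM at 32.3 and 24.3 FPKM. CDH11, a cadherin of mesenchymal cells, had 28.3 FPKM in live against 11.4 FPKM in processed cells, a log2 ratio of -1.24. RGS5, a pericyte marker named here after its values were seen, had 10.1 and 5.11 FPKM, a log2 ratio of -0.87. MCAM, which pericytes also make, had 10.2 and 10.7 FPKM and CD44 3.16 and 3.24 FPKM, both with overlapping bounds, and S100A4 had 9.52 and 12.4 FPKM, higher with separate bounds. The fibroblast marker FAP, the pericyte marker CSPG4 and the mesenchymal stem cell markers ENG and NT5E stayed below an FPKM of 1 in both libraries.

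Among 15 transcription factors of mesenchyme and of epithelial to mesenchymal transition, 9 reached an FPKM of 1, with 2 past 2-fold on the higher side and 1 on the lower side. The share past 2-fold was 12.8% over all genes and 24.6% over genes with a mean FPKM from 1 to 3. Only 4 of the 9 reached an FPKM of 1 in both libraries, and none of these 4 was past 2-fold. Of the others, 4 reached it in processed cells alone and 1 in live cells alone. Over all 14635 genes at an FPKM of 1 in both libraries, 426 were past 2-fold higher and 336 lower. ZEB2 had 9.44 FPKM in live against 6.34 FPKM in processed cells, and SNAI2 had 4.38 and 2.99 FPKM. The 3 factors past 2-fold, named after their values were seen, had low levels, with TWIST1 at 0.574 and 2.93 FPKM, TWIST2 at 0.368 and 1.84 FPKM and PRRX2 at 1.76 and 0.0129 FPKM. Of the factors of gut and pancreatic mesenchyme, FOXF1, NKX3-2 and TCF21 stayed below an FPKM of 1, and BARX1 had 0.719 and 1.46 FPKM, with separate bounds and 2.04-fold higher by plain FPKM alone.

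**Figure D4:**
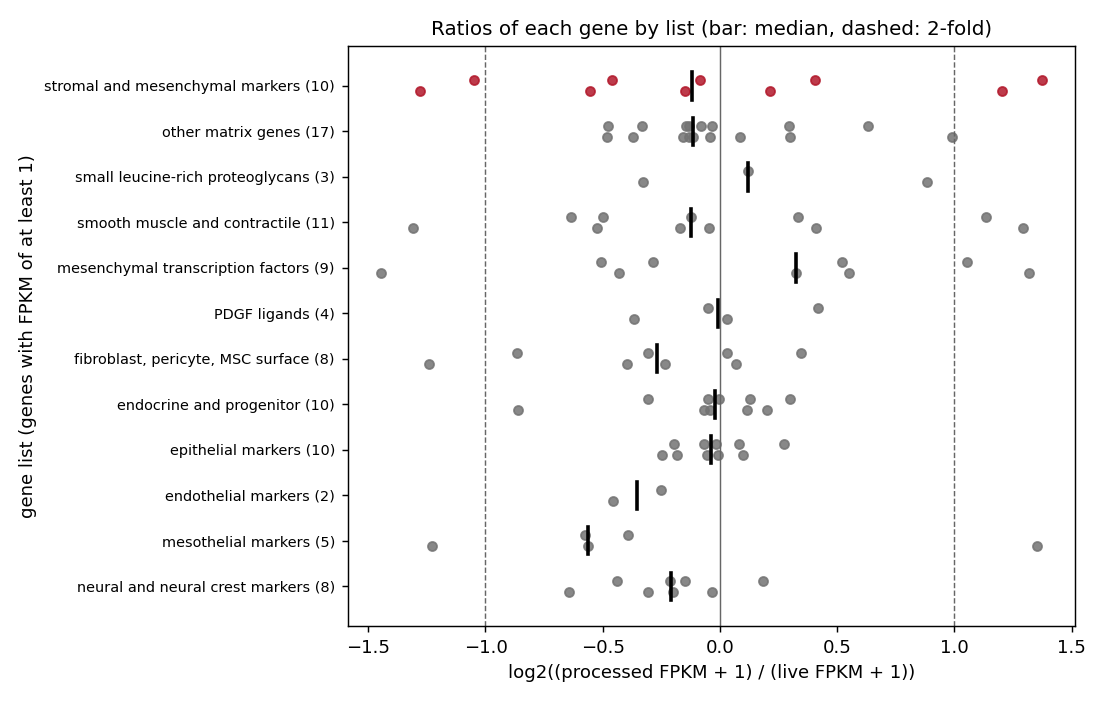
Log2 ratio of processed to live cells (pseudocount of 1) of each gene with an FPKM of at least 1, by gene list, with the number of genes in brackets; black bars are medians and dashed lines mark 2-fold. The 10 markers (red) spread from -1.28 to 1.37; the matrix, proteoglycan, PDGF ligand, endocrine, epithelial, endothelial and neural lists hold no gene past 2-fold, and the lists differ in level, on which the spread depends.

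Markers of the other cell types in the cultures were read beside these genes. Epithelial markers had the highest sum of any list, with 10 genes summing to 4012 FPKM in live against 3740 FPKM in processed cells, led by KRT8 at 1679 and 1479 FPKM and KRT18 at 998 and 959 FPKM. The 10 endocrine and pancreatic progenitor genes, which include INS, summed to 2388 and 2378 FPKM, led by CHGA at 1794 and 1741 FPKM (status FAIL in processed cells) and SST at 243 and 266 FPKM. None of these 20 genes was past 2-fold, and CHGB, at 6.56 and 3.16 FPKM, was 2.07-fold lower by plain FPKM alone, with separate bounds. Of all genes 12.8% were past 2-fold, a share that fell with the mean FPKM. It was 11.5% from 3 to 10 FPKM, 4.13% from 10 to 30, 2.12% from 30 to 300 and 0.922% from 300. VIM, at 514 FPKM in live cells, thus lay below KRT8, KRT18 and KRT19 (543 FPKM in live cells) and above every listed hormone gene.

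Neural and neural crest markers were present. Their 9 table entries under 8 symbols summed to 306 FPKM in live against 263 FPKM in processed cells, led by TUBB3 at 149.5 FPKM and 129 FPKM and SOX2 at 52.4 and 47.1 FPKM. Of the 8 entries that reached an FPKM of 1, 7 had a log2 ratio below 0 and 0 were past 2-fold, with a median of -0.21. Of all 17326 genes, 10094 had a log2 ratio below 0 and 12.8% were past 2-fold, with a median of -0.092. Neural crest cells also make VIM, and their part in its level was not tested. Mesothelial markers were low, with 7 genes summing to 12.4 and 8.79 FPKM and WT1 listed at 0 in both libraries. Of the 5 that reached an FPKM of 1, CALB2 had 5.68 and 3.52 FPKM and LRRN4 2.93 and 2.0 FPKM. UPK3B was more than 2-fold lower, at 1.43 and 0.0386 FPKM, and was counted through the live library alone. MSLN was more than 2-fold higher, at 0.272 and 2.25 FPKM, and was counted through the processed library alone. Both were named after their values were seen. Of all genes that reached an FPKM of 1 in either library, 12.8% were past 2-fold. Of the 2 mesothelial genes that reached it in both libraries, 0 were past 2-fold. Over all 14635 genes that did so, 426 were past 2-fold higher and 336 lower.

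Vessel and blood cell markers were low. The 7 endothelial genes summed to 5.15 FPKM in live against 2.92 FPKM in processed cells, and 2 of them reached an FPKM of 1, KDR at 1.21 and 0.857 FPKM and ESAM at 1.07 and 0.505 FPKM, 2.12-fold lower by plain FPKM alone. CDH5, the cadherin that defines endothelium, had 0.223 and 0.312 FPKM. TEK, at 0.591 and 0.85 FPKM, was higher in processed cells, as CDH5 was. TIE1, at 0.877 FPKM in live cells and listed at 0 in processed cells, and CLDN5, at 0.842 and 0.107 FPKM, were lower. The endothelial sum thus includes values near the floor that went both ways. PDGFRB, which marks the pericytes that coat vessels, was lower in processed cells, and the part of vessel cells in its ratio was not tested. None of the 7 blood cell genes reached an FPKM of 1 in either library, with sums of 1.55 and 0.704 FPKM, led by CD68 at 0.830 and 0.703 FPKM and HBG1 at 0.283 FPKM in live cells and listed at 0 in processed cells.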

How the data were processed

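RNA of 1 live and 1 processed sample of H1-derived Stage 6 cells was selected by poly-A and read from both ends over 80 nt. The authors aligned reads to GRCh37/hg19 with STAR 2.2.0c guided by GENCODE version 14 and deposited FPKM values with bounds and a status per gene, made with Cufflinks 2.0.2. The tables hold no read counts, so the precision of each value was read from its bounds.

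Libraries were joined by Ensembl identifier with Python 3.11.15, numpy 2.4.6 and pandas 2.3.3. Log2 ratios used a pseudocount of 1, genes reaching 1 FPKM in either library were counted, and past 2-fold was the call. Pair ratios used no pseudocount. No test was made, since each group has 1 library. Members and lists were chosen with earlier results of these data known. Named from each list were the 2 genes highest in live cells, those past 2-fold at an FPKM of at least 10, all PDGF ligands, KERA, EPYC and genes overlapping a member. Others named, listed lower-level genes included, were chosen after their values were seen. Transcripts came from GENCODE release 44 on GRCh37 and promoters from RefSeq. The ratio calculation was tested on simulated data. Alternatives covered pseudocount, filter, scaling, status and fold.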

Additional observations from a re-analysis of the deposited data

How the results depend on the processing

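Of 86 values recomputed under alternatives, 72 stayed within 1.5 times the main count or within the range that the deposited bounds allow, 14 moved and 0 changed the direction of a gene past 2-fold. Part of the 72 could not have moved. Rescaling leaves a pair ratio as it is, the pseudocount does not enter the bounds, and all 10 genes had already passed the filter that was removed. The failed live bounds of FN1 also allow almost any value. The 72 is therefore not a measure of how stable the results are. Requiring an FPKM of at least 10 left 5 of the 10 genes, with 1 past 2-fold higher (DCN), 0 lower and 4 with separate bounds, because fewer genes were tested (2.99%, 2.02% and 74.0% of all genes at this level). Dividing processed values by the median ratio left 1 gene past 2-fold lower, as ACTA2 moved to -0.98, and gave a median log2 ratio of -0.018 over the 10 genes. It also left 6 genes with separate bounds (70.4% of all genes) and turned the sign of VIM, the only 1 of 40 recomputed gene ratios to change sign. Without a pseudocount, PDGFRB moved to -1.87, POSTN to 1.87 and ACTA2 to -1.33. A fold of 1.5 called the same number of genes, 2 higher and 2 lower, while the shares of all genes rose to 13.1% and 15.6%. By plain FPKM folds, an alternative added after seeing the data, the same numbers of the 10 genes were past 2-fold, and 20.8% of all genes. A pseudocount of 1 for the pair ratios, also added later, gave a log2 change of 1.93 for DCN/LUM, and brought PDGFRB/PDGFRA to -0.82, ACTA2/TAGLN to -0.90 and FN1/POSTN to -0.80, all 3 within 2-fold. No paired analysis was possible because each condition has 1 library. No replicate could be left out, and how far 2 live libraries would differ is not known here.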
